A study of Homo sapiens with 9 samples.

Results

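The proteasome genes described here were all genes of the deposited table whose symbol begins with PSM, followed by a letter from A to G and a number. This rule found 48 of 38021 genes, and it used names only, no measured value. The RNA came from 786-O, an established human line of clear cell renal cell carcinoma, which lacks functional VHL and therefore keeps HIF2α without hypoxia. Every group carried a lentiviral pLKO.1 construct and was selected and maintained in puromycin, and the groups differed in the short hairpin RNA (shRNA). The hairpin was a control (shControl), was directed against ARNT, the usual partner of HIF2α (shARNT), or was directed against BMAL1, the partner of CLOCK in the circadian clock (shBMAL1). There were 3 libraries per group, labelled as biological replicates. Nothing else in the labels says that they came from separate infections, so p values measure the spread between these libraries, which may be partly technical. All results come from 1 cell line, and the study was set up to ask which transcripts depend on ARNT and on BMAL1.

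The proteasome is the protease that degrades proteins marked with ubiquitin. Its 20S core is a barrel of stacked rings, in which alpha subunits (PSMA genes) form the outer rings and the gate, and beta subunits (PSMB genes) form the inner rings that hold the catalytic sites. A 19S cap binds the ubiquitin chain, unfolds the substrate with a ring of ATPases (PSMC genes) and removes ubiquitin with non-ATPase subunits (PSMD genes). Other activators (PSME genes) can take the place of the cap, PSMF1 is an inhibitor of the core in vitro, and PSMG genes encode chaperones that assemble the alpha ring. In cells that respond to interferon, the catalytic subunits PSMB5, PSMB6 and PSMB7 are exchanged for PSMB8, PSMB9 and PSMB10, which gives the immunoproteasome.

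Library totals ran from 33793043 to 35444731 estimated reads. The targeted genes followed the labels: ARNT fell by 0.94 on the log2 scale under shARNT, and BMAL1 (ARNTL in the table) fell by 1.23 under shBMAL1. Each also fell, by less, under the other hairpin, with −0.23 (adjusted p 0.0187) for ARNT under shBMAL1 and −0.26 (adjusted p 0.0294) for ARNTL under shARNT. All 7 markers of renal carcinoma cells that were examined were expressed in every library. Of 6 leukocyte markers, CD3E, LYZ and HLA-DRA were at 0 in all 9 libraries, and the summed counts of all 6 ran from 7.04 to 14.7 per library, nearly all from CD14. The mitochondrial share of reads was 6.25% ± 0.859 for shControl, 8.11% ± 0.605 for shARNT and 9.40% ± 0.540 for shBMAL1 (SD, n = 3), and the part of this shift in the results below was not tested. In bulk RNA, fewer cells with a transcript and less transcript per cell cannot be told apart.

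Of the 48 genes, 46 were detected, with means over the 9 libraries from 204 to 24135 normalised read counts. PSMA8, the alpha subunit of the testis, and PSMB11, the catalytic subunit of the thymus, were at 0 in each of the 9 libraries, which allows up to 3 counts per library by counting error. The 46 others were all tested in each comparison. Proteasome genes took 0.707% ± 0.0151 of all reads in shControl and 0.710% ± 0.0129 in shARNT (SD, n = 3, exact two-sided permutation p 0.9). In shBMAL1 this share was 0.562% ± 0.0131, below every library of both other groups, with an exact p of 0.1 against either, the smallest that 3 against 3 libraries allow.

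Under shBMAL1, 33 of the 46 proteasome genes fell and none rose by the DESeq2 test (adjusted p under 0.1). Across all 19036 genes tested, 36.8% were called, 19.4% lower and 17.4% higher. No proteasome gene was higher at an unadjusted p under 0.05 either, and edgeR called 34 lower and 0 higher. The fold changes were modest, with a median of −0.29 on the log2 scale against 0.015 over all genes tested, and 43 of the 46 lay below 0. They ran from −0.85 for PSMD2 to 0.08 for PSMF1. Of the 33 genes, 26 were also lower in each of 13 alternative fits, and 7 (PSMB1, PSMB4, PSMB10, PSMC1, PSMD4, PSMD5 and PSMD9) lost the call in at least 1 of them. With a minimum change of 1.5-fold, only PSMD2 remained.

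Under shARNT proteasome genes moved in both directions. There 12 fell, 10 rose and 24 did not pass the test, with a median log2 fold change of −0.02 against 0.0028 over all genes. Of all 15164 genes tested, 35.4% were called, 19% lower and 16.5% higher, beside 26.1% lower and 21.7% higher of the proteasome genes. Scaling by library totals gave 8 lower and 10 higher, a share of lower calls of 44.4% in place of 54.5%. Single libraries moved these counts: without shControl replicate 2 or without shARNT replicate 1 there were 7 lower, and without shControl replicate 3 there were 6 higher. Of the 12 falls 6, and of the 10 rises 4, were called in each of 13 alternative fits. No call under shARNT reached 1.5-fold.

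Both knockdowns were compared with the same shControl libraries, so the difference between them was tested directly, with shBMAL1 against shARNT. Of the 46 genes, 27 were lower in shBMAL1, 1 (PSME1) was higher and 18 did not pass, while of all 18181 genes tested 35.3% were called, 18.0% lower and 17.3% higher. The median was −0.25 for proteasome genes and 0.0094 over all genes. Of the 27 genes, 23 were also lower in each of 13 alternative fits, and PSMA6, PSMB1, PSMB4 and PSMB5 lost the call in at least 1 of them. A minimum change of 1.5-fold left 3 lower (PSMD2, PSME3 and PSME4) and 0 higher.

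**Figure D1:**
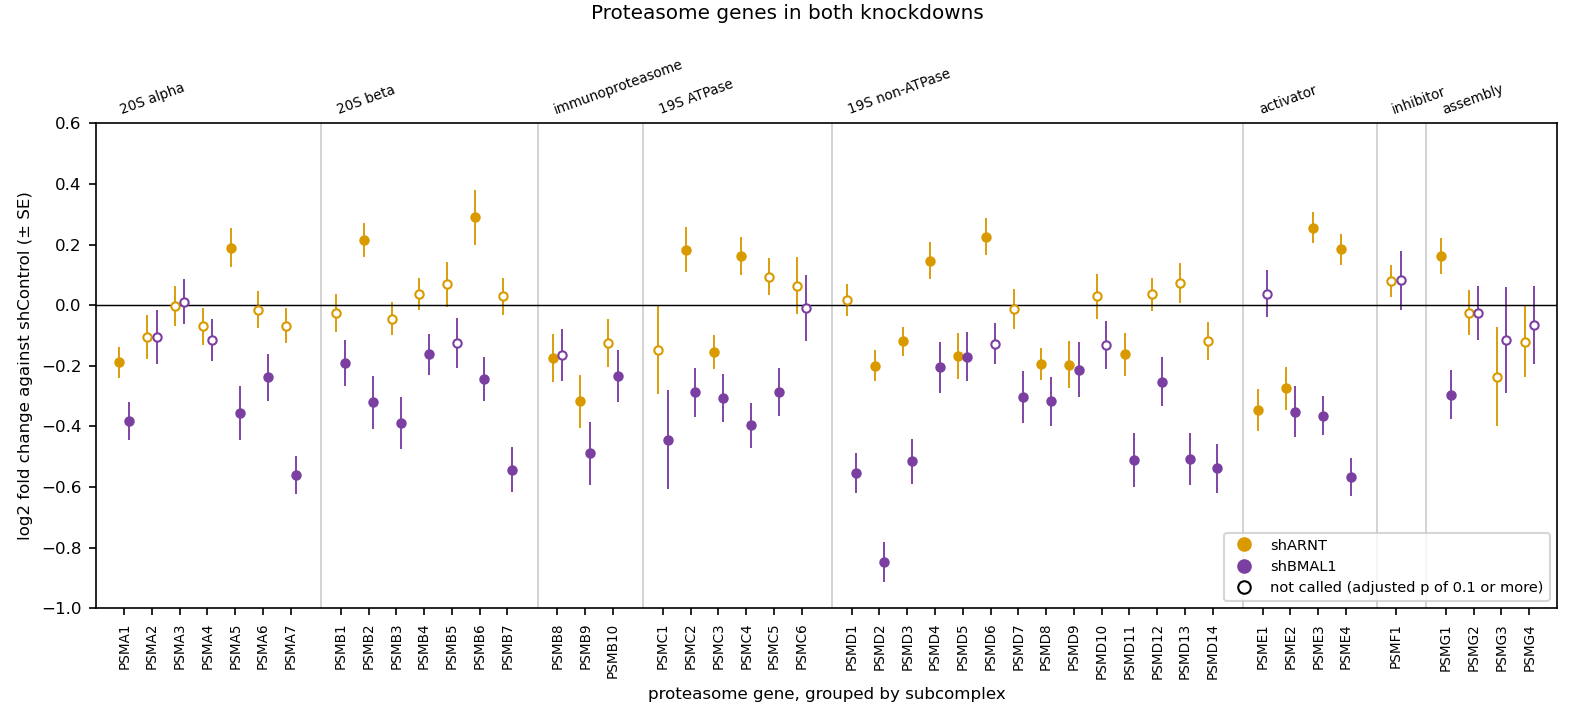
Log2 fold change of each tested proteasome gene under shARNT and under shBMAL1 against shControl (DESeq2, bars are ± 1 SE), grouped by subcomplex; filled points were called at an adjusted p under 0.1. Under shBMAL1 43 of 46 points lie below 0, whereas under shARNT the points lie on both sides.

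Subcomplexes were also followed as a level per library, the mean over the tested members of log2(normalised count + 1) minus the shControl mean. Under shBMAL1 this level was −0.25 ± 0.01 for 20S alpha, −0.28 ± 0.09 for 20S beta, −0.29 ± 0.07 for the immunoproteasome subunits, −0.29 ± 0.05 for the 19S ATPases, −0.37 ± 0.05 for the 19S non-ATPases and −0.31 ± 0.06 for the activators (SD, n = 3). The PSMG assembly chaperones were at −0.13 ± 0.04, and PSMF1, the single inhibitor gene, was at 0.07 ± 0.23. Under shARNT the level of 20S beta lay above that of all control libraries, at 0.08 ± 0.04, as did that of PSMF1, at 0.08 ± 0.04, and that of the immunoproteasome lay below them, at −0.21 ± 0.04. The immunoproteasome level under shARNT was −0.15 without shControl replicate 3. These levels were given no test, since the members were grouped with earlier results of the data known.

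**Figure D2:**
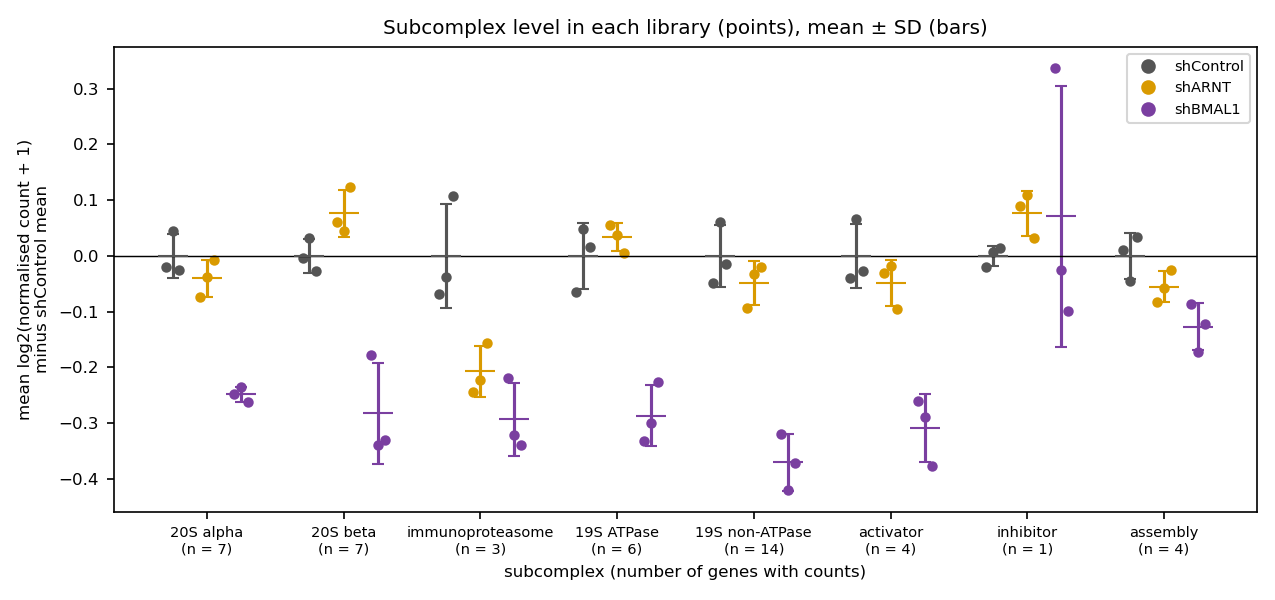
Mean log2 level of each subcomplex in each of the 9 libraries, as the difference from the shControl mean (points are libraries, bars the group mean ± SD). The shBMAL1 libraries lie below the shControl libraries in every group except the inhibitor, and the shARNT libraries lie above them in 20S beta and the inhibitor and below them in the immunoproteasome.

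Promoters were read to show which known regulatory letters the members share. RefSeq promoters, 250 bases before to 50 bases after the start site on GRCh38.p14, were matched by symbol for 42 of the 48 genes. The core of the antioxidant response element, TGAC and GC with 3 bases of any kind between them, is the element through which NFE2L1 and NFE2L2 act on proteasome genes. It was found on either strand in 13 of the 42 promoters (31.0%) and in 13.6% of all 27305 promoters. Of these 13 genes, 11 fell under shBMAL1 and none rose, and under shARNT 6 fell and 3 rose. Over all tested proteasome genes 71.7% fell under shBMAL1, and under shARNT 26.1% fell and 21.7% rose, beside 19.4% of all genes that fell under shBMAL1 and 19% that fell and 16.5% that rose under shARNT. No difference between members with and without the element was tested. The elements in 4 of the 13 genes are shown, all of them genes that fell under shBMAL1. PSME1 and PSMG2 hold the element too, were not called there, and their elements are not shown. The match in PSME4 lies on the opposite strand, so its capitals are the reverse complement of the core. Elements are in capitals, with flanking bases 5′ to 3′ on the strand of the gene.
PSMD3, chr17:39980760-39980788, plus strand: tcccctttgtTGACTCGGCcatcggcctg
PSMB3, chr17:38752627-38752655, plus strand: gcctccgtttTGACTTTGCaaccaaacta
PSMD12, chr17:67366724-67366752, minus strand: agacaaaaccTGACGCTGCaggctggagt
PSME4, chr2:53971009-53971037, minus strand: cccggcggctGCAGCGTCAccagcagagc

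The core of the interferon-stimulated response element, 2 copies of GAAA with any 2 bases between them, was found in 6 of 42 promoters (14.3%) and in 3.65% of all promoters. The genes were PSMA4, PSMB4, PSMB10, PSME1, PSME2 and PSMG4. In PSMB10, PSME2, PSMG4 and, on the opposite strand, PSME1, the matched bases were the same, and they are shown because PSMB10, PSME1 and PSME2 are known to be induced by interferon.
PSMB10, chr16:67936853-67936881, minus strand: gggtaaaggcGAAAGCGAAAgcaggaagt
PSME2, chr14:24146620-24146648, minus strand: cctggggagtGAAAGCGAAAgcccgggcg
PSME1, chr14:24136189-24136217, plus strand: gccctaccgcTTTCGCTTTCccttcgcgg
PSMG4, chr6:3258904-3258932, plus strand: ttccggggccGAAAGCGAAAgcgcgctcg
Of the 6 genes, 2 fell and none rose under shARNT, and 3 fell and none rose under shBMAL1, where 71.7% of all tested proteasome genes fell (26.1% under shARNT). Of all genes, 19% fell under shARNT and 19.4% under shBMAL1. The gamma-activated site, TTC and GAA with 3 bases between, was in 5 promoters (11.9%, against 7.88% of all).

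The palindromic E-box CACGTG, to which BMAL1 binds with CLOCK, was in 3 of 42 promoters (7.14%), close to the 7.43% of all promoters. The 3 genes were PSMB3, PSMD9 and PSME3, and each fell under shBMAL1, where 71.7% of all tested proteasome genes and 19.4% of all genes fell. The call of PSMD9 was lost in 6 of 13 alternative fits. The E-box of PSME3 is shown because that gene was high under shARNT and low under shBMAL1.
PSME3, chr17:42833345-42833373, plus strand: ctgcgcagcgCACGTGcacagcctcgcag
The cores of hypoxia response elements, ACGTG and GCGTG, of which the first lies within every such E-box, were in 21 of 42 promoters (50%) and in 48.4% of all. A match describes the letters of a window of 300 bases and not the binding of a factor.

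**Figure D3:**
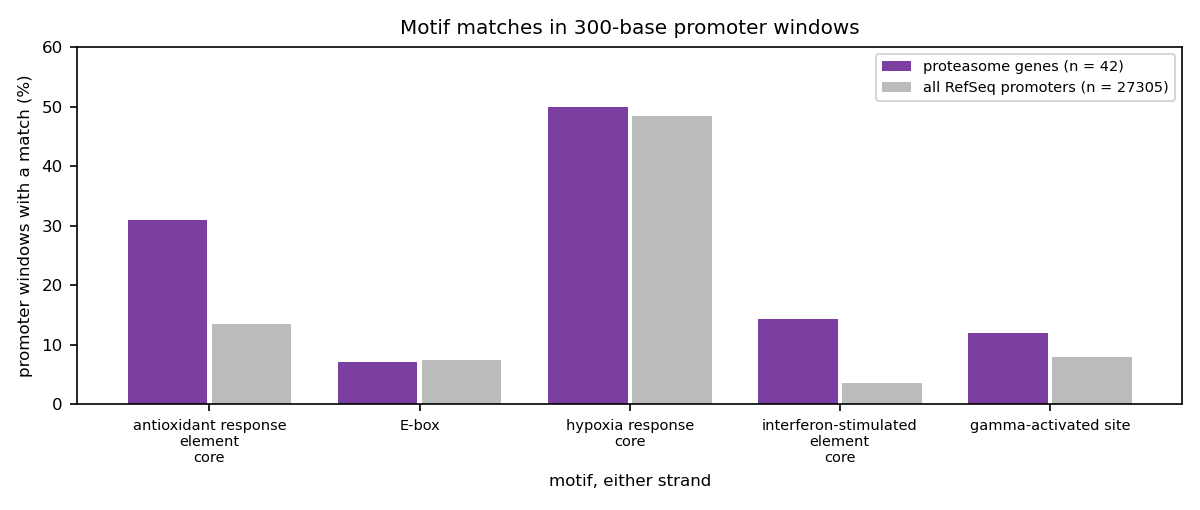
Percentage of promoters that hold each motif on either strand, for the 42 matched proteasome genes and for all 27305 RefSeq promoters. The antioxidant response core (31.0% against 13.6%) and the interferon-stimulated core (14.3% against 3.65%) had the widest gaps, and the E-box and hypoxia cores were found at nearly equal shares. No test was made.

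The alpha ring was lower under shBMAL1 for 4 of its 7 tested genes (PSMA1, PSMA5, PSMA6 and PSMA7), with a median log2 fold change of −0.24. This is 57.1%, beside 71.7% of all tested proteasome genes and 19.4% of all genes. Per kilobase of canonical transcript, control levels ran from 1074 counts for PSMA4 to 9918 for PSMA7. PSMA7 (chromosome 20) had 9235, 9867 and 9521 in shControl, 8874, 8637 and 9741 in shARNT and 6325, 6367 and 6734 in shBMAL1 normalised read counts. The shBMAL1 libraries lay well below all others and the other groups overlapped, and PSMA7 changed by −0.56 (SE 0.06, adjusted p 6.89e-18) under shBMAL1, the largest fall of the ring, and by −0.07 (adjusted p 0.411) under shARNT.

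PSMA1 (chromosome 11) had 9273, 9544 and 8795 in shControl, 7835, 8061 and 8275 in shARNT and 7239, 7025 and 6942 in shBMAL1. Its groups formed a descending order without overlap, with −0.19 (SE 0.05, adjusted p 0.00163) under shARNT, −0.38 (SE 0.06, adjusted p 8.71e-09) under shBMAL1 and −0.19 (adjusted p 0.0066) in the direct comparison. PSMA5 (chromosome 1) moved in opposite directions, with 6176, 6592 and 5611 in shControl, 7269, 6997 and 6646 in shARNT and 5447, 4661 and 4276 in shBMAL1 counts. Every shARNT library lay above and every shBMAL1 library below the controls, with 0.19 (SE 0.06, adjusted p 0.0133), −0.36 (SE 0.09, adjusted p 0.000463) and a direct difference of −0.54 (adjusted p 2.04e-09). Without shControl replicate 3 the rise of PSMA5 under shARNT was 0.13 and lost its call (adjusted p 0.132).

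PSMA3 (chromosome 14) did not follow. It had 3017, 3528 and 3261 in shControl, 3248, 3351 and 3171 in shARNT and 3246, 3269 and 3382 in shBMAL1 counts, with overlapping groups, and its fold changes were −0.0022 under shARNT (95% interval −0.13 to 0.13) and 0.01 under shBMAL1 (95% interval −0.14 to 0.16). Both intervals exclude a fall of the size seen for PSMA7. PSMA2 and PSMA4 did not pass under shBMAL1 either, both at −0.11.

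Among the constitutive beta subunits, 6 of 7 fell under shBMAL1 (all but PSMB5), with a median of −0.24, and all 7 were lower in shBMAL1 than in shARNT. The direct calls of PSMB1 and PSMB4 were lost in 3 and in 2 of the fits that left out 1 library (adjusted p up to 0.157 and 0.150). Under shARNT none of the 7 fell and 2 (PSMB2 and PSMB6) rose. By edgeR and at an unadjusted p under 0.05 none of the 7 fell under shARNT either. Of all tested proteasome genes, 71.7% fell under shBMAL1 and 58.7% were lower in the direct comparison, beside 19.4% and 18.0% of all genes. Under shARNT 26.1% of the proteasome genes fell and 21.7% rose, beside 19% and 16.5% of all genes. Control levels per kilobase ran from 2266 counts for PSMB2 to 11599 for PSMB4.

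The catalytic subunits did not move alike. PSMB7 (chromosome 9), which carries the trypsin-like site, had 10879, 11972 and 10818 in shControl, 10466, 11768 and 12040.3 in shARNT and 8317, 7719.7 and 7101 in shBMAL1 normalised read counts. Its shBMAL1 libraries lay below all others, and it changed by −0.54 (SE 0.07, adjusted p 3.77e-12) under shBMAL1 and by 0.03 (adjusted p 0.791) under shARNT. PSMB7 was the only proteasome gene with fractional counts, which were rounded. PSMB6 (chromosome 17), with the caspase-like site, had 2833, 2993 and 3119.7 in shControl, 3479.6, 3123 and 4315 in shARNT and 2557, 2593 and 2415 in shBMAL1 counts. All shARNT libraries lay above the controls and all shBMAL1 libraries below them, although shARNT replicate 3 stood well above the other two. The changes were 0.29 (SE 0.09, adjusted p 0.00688) under shARNT, −0.24 (SE 0.07, adjusted p 0.0034) under shBMAL1 and −0.53 (adjusted p 1.07e-06) in the direct comparison.

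Single libraries decided the rise of PSMB6 under shARNT. Without shARNT replicate 3 it was 0.15 (adjusted p 0.148), without shARNT replicate 1 it was 0.32 (adjusted p 0.195), without shControl replicate 2 it was 0.29 (adjusted p 0.282) and without shControl replicate 3 it was 0.32 (adjusted p 0.208).

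PSMB5 (chromosome 14), with the chymotrypsin-like site that proteasome inhibitor drugs bind, had 3590.1, 3164 and 3455 in shControl, 3962, 3267 and 3458 in shARNT and 3303, 2807 and 3266 in shBMAL1 counts. All groups overlapped, and neither 0.07 (adjusted p 0.548) under shARNT nor −0.12 (adjusted p 0.268) under shBMAL1 passed the test. The direct difference passed at −0.19 (adjusted p 0.09) and lost its call without shARNT replicate 1 (−0.11, adjusted p 0.444), without shARNT replicate 3 (−0.21, adjusted p 0.122) or shBMAL1 replicate 2 (−0.12, adjusted p 0.384), and with library-total scaling (−0.18, adjusted p 0.107).

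Of the beta subunits without a catalytic site, PSMB3 (chromosome 17), which carries both an E-box and the antioxidant response core shown above, had 5806, 6127 and 6073 in shControl, 5854, 6024 and 5540.1 in shARNT and 5061, 3929 and 4784 in shBMAL1 counts. The shBMAL1 libraries were the lowest and spread the most, and PSMB3 changed by −0.39 (SE 0.09, adjusted p 4.95e-05) under shBMAL1 and by −0.04 (adjusted p 0.598) under shARNT. PSMB2 (chromosome 1) had 9807, 10752 and 9522 in shControl, 11261, 11896 and 11692 in shARNT and 9196, 7873 and 7047 in shBMAL1 counts. Its shARNT libraries were all above and its shBMAL1 libraries all below the controls, with 0.22 (SE 0.06, adjusted p 0.00077), −0.32 (SE 0.09, adjusted p 0.00154) and a direct difference of −0.53 (adjusted p 4.28e-09). Among the constitutive beta subunits, PSMB1 and PSMB4 had the smallest called falls under shBMAL1, −0.19 (adjusted p 0.0371) and −0.16 (adjusted p 0.0489). Both calls were lost in fits without 1 library, with an adjusted p of up to 0.199 for PSMB1 (without shControl replicate 1) and 0.226 for PSMB4 (without shBMAL1 replicate 2).

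The immunoproteasome subunits were expressed at a basal level in these carcinoma cells, at 1025 counts per kilobase for PSMB9, 1544 for PSMB10 and 2376 for PSMB8 in shControl, against 3619, 11405 and 3259.7 for the constitutive subunits they replace. Leukocyte markers were at or near 0, as given above. Under each knockdown 2 of the 3 fell and none rose, which is 66.7%, beside 26.1% of all tested proteasome genes and 19% of all genes under shARNT and 71.7% and 19.4% under shBMAL1. The direct comparison called none of the 3, by DESeq2, by edgeR or at an unadjusted p under 0.05. The exception was PSMB9 without shBMAL1 replicate 1, at −0.25 (adjusted p 0.0892).

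PSMB9 (chromosome 6) had 979, 1081 and 1068 in shControl, 818, 789 and 899 in shARNT and 827, 752 and 654 in shBMAL1 normalised read counts. Every knockdown library lay below every control library, with −0.32 (SE 0.09, adjusted p 0.0017) under shARNT and −0.49 (SE 0.10, adjusted p 2.22e-05) under shBMAL1, while the knockdown groups overlapped, with a direct difference of −0.17 (adjusted p 0.259). PSMB9 lies beside TAP1 and PSMB8 in the major histocompatibility complex and overlaps both genes and PSMB8-AS1 in the annotation. PSMB8 had 2608, 2455 and 2949 in shControl, 2172, 2372 and 2538 in shARNT and 2559, 2231 and 2368 in shBMAL1 counts, with overlapping groups. It was called under shARNT at −0.17 (SE 0.08, adjusted p 0.08) and not under shBMAL1 at −0.16 (SE 0.09, adjusted p 0.138), and the call under shARNT was lost in 7 of 13 alternative fits, with −0.10 (adjusted p 0.433) without shControl replicate 3, −0.12 (adjusted p 0.347) without shARNT replicate 1, −0.18 (adjusted p 0.169) without shARNT replicate 2 and −0.19 (adjusted p 0.127) without shControl replicate 1. Under shBMAL1 it was called by edgeR (adjusted p 0.0980), without shControl replicate 2 (−0.22, adjusted p 0.0661) and, at −0.22 (adjusted p 0.0445), when shBMAL1 replicate 1 was left out.

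PSMB10 (chromosome 16), with the interferon-stimulated core shown above, had 1416, 1454 and 1655 in shControl, 1417, 1406 and 1319.9 in shARNT and 1252, 1274 and 1328 in shBMAL1 counts. The shBMAL1 libraries lay just below the controls, with −0.23 (SE 0.09, adjusted p 0.0259) under shBMAL1 and −0.12 (adjusted p 0.25) under shARNT. Without shControl replicate 3, the highest library, the change under shBMAL1 was −0.16 (adjusted p 0.212).

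At the level of RNA, each immunoproteasome subunit was set against the constitutive one it replaces as a log2 ratio of counts. Which subunits the assembled core held was not measured. PSMB9 to PSMB6 was −1.52 ± 0.04 for shControl, −2.11 ± 0.14 for shARNT and −1.77 ± 0.13 for shBMAL1 (SD, n = 3). No groups overlapped, and the differences were −0.60 for shARNT, −0.25 for shBMAL1 and 0.35 between them, each at p 0.1 by the exact two-sided permutation test, the smallest possible, and 0.225 adjusted over the 9 tests made. PSMB10 to PSMB7 was −2.90 ± 0.17 in shControl, −3.05 ± 0.15 in shARNT and −2.58 ± 0.16 in shBMAL1. Here shBMAL1 lay above shARNT without overlap, by 0.46 (exact permutation p 0.1, adjusted 0.225), and the control overlapped both. Between shBMAL1 and shARNT, PSMB7 changed by −0.57 and PSMB10 by −0.11, which was not called. PSMB8 to PSMB5 overlapped in all comparisons, with differences of −0.24 for shARNT, −0.04 for shBMAL1 and 0.20 between them (exact permutation p 0.2, 0.6 and 0.3). No ratio could pass the threshold of 0.05 with 3 libraries per group.

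**Figure D4:**
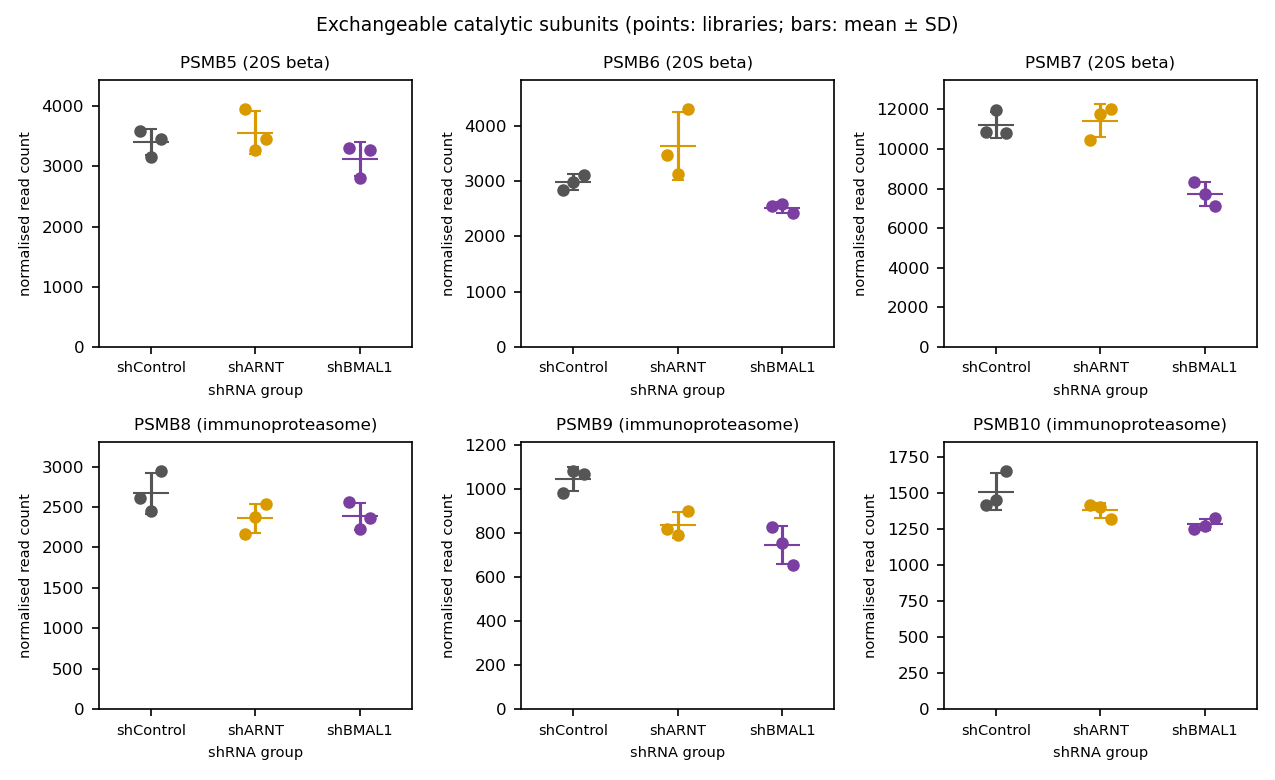
Normalised read counts of the constitutive catalytic subunits (upper row) and the immunoproteasome subunits that replace them (lower row) in each library, with the group mean ± SD. PSMB7 is lowest in shBMAL1, PSMB6 is high under shARNT and low under shBMAL1, and PSMB9 is lower in both knockdowns.

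In the 19S cap, 5 of 6 ATPases fell under shBMAL1 (all but PSMC6), with a median of −0.30, and 3 (PSMC2, PSMC4 and PSMC5) were lower in shBMAL1 than in shARNT. Under shARNT, PSMC3 fell and PSMC2 and PSMC4 rose. The shares of all tested proteasome genes were 71.7% lower under shBMAL1, 58.7% lower in the direct comparison, and 26.1% lower and 21.7% higher under shARNT. Those of all genes were 19.4%, 18.0%, 19% and 16.5%, in the same order. PSMC4 (chromosome 19) had 3114, 2991 and 3053 in shControl, 3646, 3375 and 3205 in shARNT and 2135, 2475 and 2355 in shBMAL1 counts. Its shARNT libraries lay above and its shBMAL1 libraries below the controls, with 0.16 (SE 0.06, adjusted p 0.0356), −0.40 (SE 0.08, adjusted p 1.57e-06) and −0.56 (adjusted p 1.01e-10) directly. The rise under shARNT was 0.11 without shARNT replicate 1 (adjusted p 0.243) and 0.15 without shControl replicate 2 (adjusted p 0.135).

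PSMC2 (chromosome 7) had 8092, 9665 and 8031 in shControl, 9309, 10707 and 9205 in shARNT and 6978, 7552 and 6619.6 in shBMAL1 counts. Its shBMAL1 libraries lay below all others, while shARNT and shControl overlapped, with 0.18 (SE 0.07, adjusted p 0.049) under shARNT, −0.29 (SE 0.08, adjusted p 0.00236) under shBMAL1 and −0.47 (adjusted p 1.99e-08) directly. The rise under shARNT lost its call without shARNT replicate 2 (0.11, adjusted p 0.350), without shControl replicate 1 (0.14, adjusted p 0.249) and without shControl replicate 3 (0.14, adjusted p 0.246), and after a correction for GC content (0.15, adjusted p 0.118). PSMC3 (chromosome 11) had 5599.5, 5650 and 5349 in shControl, 5232, 4826 and 4828 in shARNT and 4307, 4127 and 5014 in shBMAL1 counts. Both knockdown groups lay below the controls and overlapped each other, with −0.15 (SE 0.06, adjusted p 0.0228) under shARNT, −0.31 (SE 0.08, adjusted p 0.000656) under shBMAL1 and a direct difference of −0.15 (adjusted p 0.167). The fall under shARNT was lost without any of 4 libraries (shControl replicates 1 and 2, shARNT replicates 2 and 3), with an adjusted p from 0.103 to 0.134, and with the GC correction (−0.10, adjusted p 0.144).

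The remaining named ATPases were measured at low counts. PSMC1 (chromosome 14) had 237, 304 and 315 in shControl, 260.2, 250.4 and 261 in shARNT and 184, 224 and 223 in shBMAL1 counts, only 65.1 per kilobase in shControl, where PSMC6 had 340.2 and PSMC5, the highest of the ring, had 3999.8. The subunits form 1 ring in the protein complex. PSMC1 has 13 annotated pseudogenes, and the sources do not say how reads that match several places were counted, so its level is uncertain. It changed by −0.44 (SE 0.16, adjusted p 0.0235) under shBMAL1, and this was lost without shControl replicate 2 (−0.40, adjusted p 0.114), without shControl replicate 3 (−0.37, adjusted p 0.159) or shBMAL1 replicate 1 (−0.36, adjusted p 0.132). PSMC6 (chromosome 14) had 704, 695 and 809 in shControl, 763, 793 and 747 in shARNT and 712, 669 and 814 in shBMAL1 counts, with all groups overlapping and changes of 0.06 (adjusted p 0.674) and −0.01 (adjusted p 0.961).

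PSMD2, a 19S non-ATPase, had the largest fall of all proteasome genes under shBMAL1. Of the 14 non-ATPases, 12 fell there (85.7%) and none rose, with a median of −0.31. Of all tested proteasome genes 71.7% fell under shBMAL1, and of all genes 19.4%. PSMD5, PSMD9 and PSMD10, which are chaperones of cap assembly and not subunits of the finished cap, were also counted apart. Of the 11 others, 10 fell (all but PSMD6), with a median of −0.51, whereas the 3 chaperones had a median of −0.17. In the direct comparison the same 11 had 10 lower, and none of the chaperones was called. There 58.7% of all tested proteasome genes and 18.0% of all genes were lower. The falls of PSMD5 (−0.17 (adjusted p 0.0999)) and PSMD9 (−0.21 (adjusted p 0.0578)) under shBMAL1 lost their call in 7 and in 6 of 13 alternative fits, among them those without shControl replicate 2, with −0.10 (adjusted p 0.449) for PSMD5 and −0.14 (adjusted p 0.317) for PSMD9, and those with the replicate block, with adjusted p 0.180 and 0.109.

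PSMD2 (chromosome 3), a large scaffold of the base that receives ubiquitin receptors, was the most abundant proteasome transcript by count, with 29363, 30627 and 29578 in shControl, 24768, 25449 and 27578 in shARNT and 17969, 15785 and 16094 in shBMAL1 normalised read counts. The groups descended without overlap. PSMD2 changed by −0.20 (SE 0.05, adjusted p 0.000696) under shARNT and by −0.85 (SE 0.07, adjusted p 3.81e-36) under shBMAL1, a fall of 44.4%, and the direct difference was −0.64 (adjusted p 9.74e-19). The other large scaffold, PSMD1 (chromosome 2), fell by 0.55 under shBMAL1 (12320.1 ± 443 for shControl, 12429 ± 578 for shARNT and 8398 ± 508 for shBMAL1, SD, n = 3) and changed by 0.02 (adjusted p 0.87) under shARNT. PSMD14, the deubiquitinase of the lid, changed by −0.12 (adjusted p 0.158) under shARNT and by −0.54 (SE 0.08, adjusted p 4.54e-10) under shBMAL1. Other lid subunits that fell under shBMAL1 by about as much were PSMD3 (−0.52), PSMD11 (−0.51) and PSMD13 (−0.51).

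Under shARNT 6 of the 14 non-ATPases fell (42.9%) and 2 rose (14.3%). Of all tested proteasome genes 26.1% fell and 21.7% rose there, and of all genes 19% fell and 16.5% rose. PSMD6 (chromosome 3), a lid subunit, had 3277, 3169 and 3075 in shControl, 3503, 3832 and 3781 in shARNT and 2910.1, 2904 and 2919 in shBMAL1 counts. Its shARNT libraries lay above all others, with 0.23 (SE 0.06, adjusted p 0.00106), and its shBMAL1 libraries lay just below the controls, with −0.13 (SE 0.07, adjusted p 0.141), which passed only with the GC correction (−0.15, adjusted p 0.0467), and a direct difference of −0.35 (adjusted p 2.87e-06). PSMD4 (chromosome 1), a ubiquitin receptor, had 6328, 6698 and 5809.7 in shControl, 6602, 7055 and 7158 in shARNT and 6134, 5019 and 5207 in shBMAL1 counts, with shARNT and shBMAL1 each overlapping the controls. It was called at 0.15 (SE 0.06, adjusted p 0.0546) under shARNT and −0.21 (SE 0.08, adjusted p 0.0476) under shBMAL1, and the direct difference was −0.35 (adjusted p 9.37e-05).

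Both calls of PSMD4 against shControl rested on single libraries. Under shARNT the change was 0.09 without shControl replicate 3 (adjusted p 0.305), 0.15 without shControl replicate 1 (adjusted p 0.127), 0.14 without shARNT replicate 2 (adjusted p 0.179) and 0.13 without shARNT replicate 3 (adjusted p 0.209). Under shBMAL1 it was −0.15 without shBMAL1 replicate 2 (adjusted p 0.249), −0.17 without shBMAL1 replicate 3 (adjusted p 0.165), −0.16 without shControl replicate 2 (adjusted p 0.231) and −0.20 without shControl replicate 1 (adjusted p 0.127). The falls of PSMD3, PSMD5, PSMD9 and PSMD11 under shARNT lost their call in 9, 5, 3 and 5 of 13 alternative fits. All 4 lost it without shControl replicate 2 (log2 fold changes of −0.09, −0.10, −0.12 and −0.09) and without shARNT replicate 1 (−0.12, −0.13, −0.16 and −0.13). PSMD3 lost it in 5 of the 6 fits that left out 1 library, with library-total scaling, in 1 fit of 9 libraries, with the replicate block (adjusted p 0.103) and with the GC correction. PSMD5 also lost it with library-total scaling and with the replicate block (adjusted p 0.114). PSMD2 and PSMD8 kept their call in all 13 alternative fits.

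The activators split within the family. PSME1 and PSME2, neighbours on chromosome 14, encode the subunits of the cytoplasmic activator that interferon induces. PSME1 had 4535, 5073 and 4258 in shControl, 3647, 3786 and 3447 in shARNT and 4986, 4754 and 4521 in shBMAL1 normalised read counts. Its shARNT libraries lay below all others and its shBMAL1 libraries overlapped the controls, with −0.35 (SE 0.07, adjusted p 5.62e-06) under shARNT, 0.04 (SE 0.08, adjusted p 0.775) under shBMAL1 and a direct difference of 0.39 (SE 0.07, adjusted p 2.75e-07), the only rise in that comparison, which was called in all 13 alternative fits. PSME2 had 2498, 2877 and 2620.3 in shControl, 2230.4, 2298 and 2065 in shARNT and 2251, 2108 and 1919 in shBMAL1 counts, lower than the controls in both knockdowns, with −0.27 (SE 0.07, adjusted p 0.000745) and −0.35 (SE 0.08, adjusted p 0.000208) and a direct difference of −0.07 (adjusted p 0.575). Both promoters hold the interferon-stimulated core shown above. PSME2 has 6 annotated pseudogenes, so its level is less certain.

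PSME3 and PSME4 encode nuclear activators. PSME3 (chromosome 17) had 7119.9, 7402 and 7206 in shControl, 8788, 8862 and 8223 in shARNT and 5769, 5828 and 5299 in shBMAL1 counts. Its shARNT libraries lay above and its shBMAL1 libraries below all controls, with 0.26 (SE 0.05, adjusted p 6.95e-06), −0.36 (SE 0.06, adjusted p 1.86e-07) and a direct difference of −0.62 (adjusted p 5.74e-19). PSME4 (chromosome 2) had 5202, 5211 and 5403 in shControl, 6008, 5777 and 6147 in shARNT and 3515, 3591 and 3580.1 in shBMAL1 counts, in the same order, with 0.18 (SE 0.05, adjusted p 0.00223), −0.57 (SE 0.06, adjusted p 1.82e-18) and a direct difference of −0.75 (adjusted p 3.51e-31), the largest of any proteasome gene. The spread within groups was small for PSME4, and the calls of PSME3 and PSME4 held in every alternative fit. PSME3 overlaps BECN1 and PSME4 overlaps ACYP2 in the annotation, and no source says whether the counting used strand.

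**Figure D5:**
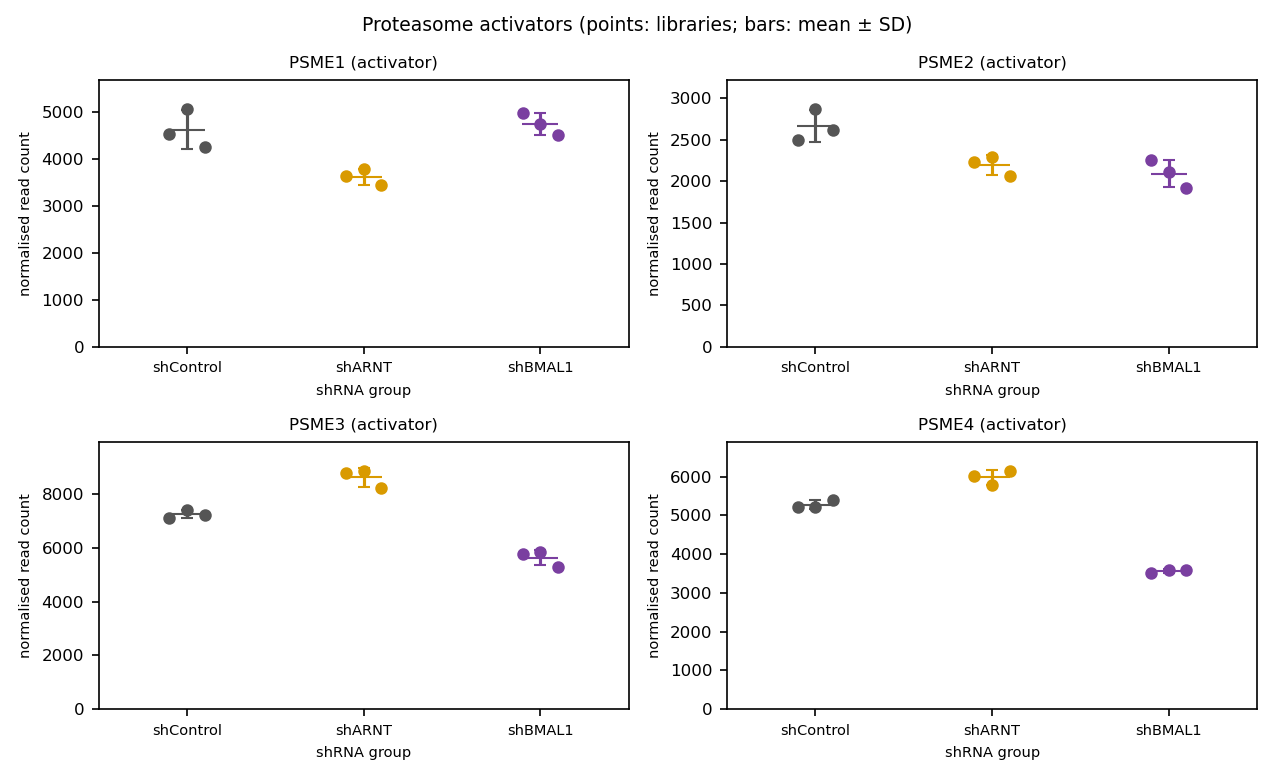
Normalised read counts of the 4 activator genes in each library, with the group mean ± SD. PSME1 is lowest in shARNT, PSME2 is lower in both knockdowns, and PSME3 and PSME4 are highest in shARNT and lowest in shBMAL1.

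PSMF1 (chromosome 20), the inhibitor, had 3606, 3673 and 3692 in shControl, 3889.8, 3943 and 3737 in shARNT and 4619, 3593 and 3414 in shBMAL1 counts. The shARNT libraries lay slightly above the controls (0.08 (adjusted p 0.285)), and shBMAL1 replicate 1 stood far above the other libraries of its group. The change under shBMAL1 was 0.08 (SE 0.10, adjusted p 0.589) and turned to −0.06 without that library. PSMF1 was called in no comparison.

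Among the PSMG chaperones, which assemble the core, only PSMG1 passed a test in any comparison. PSMG1 (chromosome 21), which forms a pair with PSMG2, had 2599, 2591 and 2649.6 in shControl, 2862, 3048 and 2848 in shARNT and 2355, 2102 and 1941 in shBMAL1 counts. Its shARNT libraries lay above and its shBMAL1 libraries below the controls, with 0.16 (SE 0.06, adjusted p 0.0237), −0.30 (SE 0.08, adjusted p 0.00161) and a direct difference of −0.45 (adjusted p 3.91e-07). The rise under shARNT was 0.13 without shARNT replicate 2 (adjusted p 0.168).

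The partner of PSMG1 did not move with it. PSMG2 (chromosome 18) had 1376, 1491 and 1552 in shControl, 1507, 1392 and 1434 in shARNT and 1322, 1473 and 1551 in shBMAL1 counts, and its changes were −0.03 under shARNT (95% interval −0.17 to 0.12) and −0.03 under shBMAL1 (95% interval −0.20 to 0.15). PSMG3 (chromosome 7) had 254, 202 and 206 in shControl, 174, 189 and 198 in shARNT and 201, 173 and 238 in shBMAL1 counts, with −0.24 (adjusted p 0.296) and −0.11 (adjusted p 0.689), and at this depth a change of the size of most called members would have been hard to detect, since its 95% interval under shBMAL1 ran from −0.46 to 0.23. PSMG4 did not pass either, at −0.12 and −0.07.

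Genes that work with the proteasome were counted from a list of 30 partners (receptors, deubiquitinases, ubiquitin genes, assembly factors and transcription factors). Under shBMAL1, 18 fell and 1 rose, with a median of −0.23, under shARNT 6 fell and 5 rose, with a median of −0.05, and in the direct comparison 15 were lower and 2 higher in shBMAL1. Of all genes, 19.4% fell and 17.4% rose under shBMAL1, 19% fell and 16.5% rose under shARNT, and 18.0% were lower and 17.3% higher in the direct comparison, so that the counts of the list under shARNT lay at the share of all genes. Under shBMAL1 the largest falls were those of UBA6, an enzyme that activates ubiquitin (−0.85), DDI2, the protease that activates NFE2L1 (−0.73), ADRM1, a ubiquitin receptor of the cap (−0.49), and KIAA0368, also known as ECPAS, which binds the 26S particle (−0.45). The 1 gene that rose was PAAF1, a regulator of cap assembly (0.26 (adjusted p 0.0168)).

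Under shARNT the genes of the list that fell included UBA6 (−0.41), NGLY1, which removes glycans from NFE2L1 (−0.41) and NFE2L1 itself (−0.20), and those that rose included UBE3C (0.36), ZFAND2A (0.30), NFE2L2 (0.20) and ADRM1 (0.18). ADRM1 had 4902, 4347 and 4999.9 in shControl, 5608, 5249 and 5211 in shARNT and 3506, 3195 and 3426 in shBMAL1 counts, so that its libraries lay in the same order as those of PSME3 and PSME4. NFE2L1, which drives proteasome genes when proteolysis is impaired, changed by −0.09 (adjusted p 0.37) under shBMAL1 and NFE2L2 by 0.09 (adjusted p 0.424), neither called.

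Of 9 genes of antigen processing, which uses peptides made by the proteasome, 4 fell and none rose under shARNT, and 6 fell and 2 rose under shBMAL1. TAP1, the peptide transporter gene next to PSMB9, had 4766, 4527 and 4755 in shControl, 3047, 3254 and 3336 in shARNT and 2683, 2808 and 2568 in shBMAL1 counts, with −0.54 (SE 0.06, adjusted p 5.92e-19) under shARNT and −0.80 (SE 0.07, adjusted p 1.32e-30) under shBMAL1. NLRC5, an activator of these genes, changed by −0.06 (adjusted p 0.684) under shARNT and by −0.87 (adjusted p 1.49e-15) under shBMAL1. ERAP1, a peptidase that trims antigens, rose under shBMAL1 (0.18 (adjusted p 0.0318)). In the direct comparison 4 were lower and 3 higher in shBMAL1. The shares of all genes in each direction, given above for the partners, were 16.5% to 19.4%.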

How the data were processed

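RNA of 786-O cells with shControl, shARNT or shBMAL1 (3 libraries each, groups and replicate numbers from the sample labels) was analysed from 1 table of estimated counts per gene, deposited by the authors as linear total reads. Per the labels, the libraries were stranded mRNA. Per the methods of the study, reads were mapped in SeqMan NGen to GRCh37 and then quantified in ArrayStar, whereas the submitters' processing notes name hg38 and STAR beside DESeq2. Which of these made the deposited counts, the annotation and the strand setting are not given in the sources used here, so levels of genes with pseudogenes (17 of the proteasome genes) or opposite-strand overlaps (24) are uncertain. The value 0.009, in 46.3% of cells, stood for 0. Fractional values (6.14% of the others) were rounded. Rows that shared a symbol (53) were added together, which left 38021 of 38074 rows.

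Each comparison was fitted over all genes of its 6 libraries with DESeq2 1.42.0 (R 4.3.3, median-of-ratios size factors, Wald test, Benjamini-Hochberg adjusted p under 0.1, the tool and threshold of the study). Printed normalised counts used size factors over all 9 libraries. Catalytic ratios are of log2(normalised count + 0.5), tested by exact two-sided permutation in scipy 1.17.1. The count fit was tested on simulated data. Libraries of 1 group differed by more than sampling noise (chi-square per degree of freedom 7.60 to 17.6), so none was counted as a copy. Counts per kilobase used canonical transcripts of GENCODE, lifted to GRCh37. Genes named with values in every library were the catalytic subunits, PSMF1, the lowest and highest fold change of each subcomplex of 4 or more in either knockdown, and genes called in opposite directions. PSME2, the partner of PSME1, was added after its values were seen. Of the other lists they were up to 4 called genes in each direction with the largest fold changes. The genes and lists were chosen with earlier results of these data known. Alternatives were edgeR 4.0.16, TMM or library-total scaling, a filter of 10 counts in 3 libraries, an adjusted p under 0.05, a 1.5-fold minimum, 1 fit of 9 libraries, a replicate block, a GC correction (loess span 0.3) and leaving out each library. Some genes of the lists count in the totals, but their own values are not reported here.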

Additional observations from a re-analysis of the deposited data

How the results depend on the processing

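Each proteasome count was recomputed under the alternatives listed above. With a minimum change of 1.5-fold, 0 genes were lower and 0 higher under shARNT, 1 was lower under shBMAL1, and 3 were lower and 0 higher in the direct comparison. Leaving out 1 library gave 7 to 11 lower and 6 to 9 higher under shARNT, 28 to 31 lower under shBMAL1 and 24 to 29 lower in the direct comparison. Scaling by library totals, which moved the median of all genes under shBMAL1 from 0.015 to 0.051, gave a median of −0.25 for the proteasome genes under shBMAL1, an all-member level of −0.00113 under shARNT and a 20S alpha level of −0.21 under shBMAL1.

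With 1 library left out, the median ran from −0.30 to −0.25 under shBMAL1 and from −0.27 to −0.23 in the direct comparison, the 20S alpha level under shBMAL1 from −0.26 to −0.23, the immunoproteasome level under shARNT from −0.24 to −0.15 and the 19S ATPase level under shARNT from 0.000765 to 0.058. The cause of these shifts was not tested.

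The fold changes that crossed 0 were called in none of the fits. Among the genes given with values in every library they were as follows. Under shARNT, PSMA3 was 0.0198 by library totals and 0.000109 with the replicate block, and PSMB3 was 0.0169 with the GC correction. Under shBMAL1, PSMA3 was −0.0194 with the GC correction, and by library totals PSMC6 was 0.0273 and PSMG2 0.0125. In the direct comparison PSMB8 was −0.0120 with the GC correction, and PSMF1 was −0.00635 with the block and −0.00940 with the GC correction. With 1 library left out, the range under shARNT was −0.0582 to 0.0563 for PSMA3, −0.0149 to 0.128 for PSMB5, −0.00945 to 0.0874 for PSMB7 and −0.0730 to 0.0129 for PSMG2. Under shBMAL1 it was −0.0458 to 0.0684 for PSMA3, −0.0937 to 0.0603 for PSMC6, −0.0199 to 0.109 for PSME1, −0.0777 to 0.0358 for PSMG2 and −0.0640 to 0.165 for PSMF1. In the direct comparison it was −0.0450 to 0.0662 for PSMB8, −0.00436 to 0.0361 for PSMA3, −0.00155 to 0.230 for PSMG3, −0.0495 to 0.0668 for PSMG2 and −0.138 to 0.0882 for PSMF1. Fold changes of PSMA6, PSMB1, PSMB4, PSMD1, PSMD7, PSMD10 and PSMD12 under shARNT, of PSMG4 under shBMAL1 and of PSMA2, PSMD5, PSMD9 and PSMG4 in the direct comparison also crossed 0.

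Replicate numbers are shared by the groups, but libraries of the same number did not deviate together (correlations of −0.15 to 0.11), so the numbers pair nothing. With the replicate number as a block, 10 proteasome genes were lower and 10 higher under shARNT, 31 lower and 0 higher under shBMAL1, and 27 lower and 1 higher in the direct comparison. With 3 libraries per group, no exact test of a single ratio could go below p = 0.1.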

Other observations

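Antisense genes annotated beside proteasome genes were looked at after their values were seen. PSMA3-AS1 had 329, 316 and 294 in shControl, 451, 469 and 441 in shARNT and 478, 596 and 551 in shBMAL1 normalised read counts, above the controls in both knockdowns, with 0.54 (SE 0.12, adjusted p 4.29e-05) under shARNT and 0.79 (SE 0.13, adjusted p 8.26e-09) under shBMAL1, while PSMA3 itself was not called in either. PSMB8-AS1, which overlaps PSMB8 and PSMB9, had 589.6, 577 and 588 in shControl, 452, 461 and 506 in shARNT and 390.2, 423 and 348 in shBMAL1 counts, below the controls in both knockdowns, with −0.30 (SE 0.10, adjusted p 0.0137) and −0.60 (SE 0.12, adjusted p 2.59e-06). PSMD5-AS1 fell under shARNT (−0.37 (adjusted p 0.0102)) and rose under shBMAL1 (0.25 (adjusted p 0.0805)), and PSMG3-AS1 rose under shBMAL1 (0.33 (adjusted p 0.0134)) with −0.07 (adjusted p 0.735) under shARNT. PSMD6-AS2, at 27.5 ± 1.42 for shControl, 27.6 ± 3.23 for shARNT and 24.6 ± 7.56 for shBMAL1 (SD, n = 3), was not called. No source says whether the counting used strand, so reads of these genes and of their partners cannot be told apart where they overlap.

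PSMC5 and PSMD14 were not called under shARNT but passed in some fits. PSMC5 was 0.15 with the GC correction (adjusted p 0.0268) and 0.14 without shControl replicate 2 (adjusted p 0.0813), and PSMD14 was −0.14 with the GC correction (adjusted p 0.0762) and −0.18 without shControl replicate 1 (adjusted p 0.0201). Under shBMAL1, PSMD10 passed with the GC correction (−0.17, adjusted p 0.0737). In the direct comparison PSMC3 passed without shBMAL1 replicate 3 (−0.24, adjusted p 0.00888) and with the GC correction (−0.16, adjusted p 0.0978), PSMC1 by edgeR (−0.29, adjusted p 0.0736), PSMD10 without shARNT replicate 1 (−0.22, adjusted p 0.0759) and PSMD8 without shBMAL1 replicate 1 (−0.21, adjusted p 0.00520).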
